A study of Homo sapiens with 16 samples.

Results

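The interaction of deoxycorticosterone acetate (DOC) and phorbol 12-myristate 13-acetate (PMA) is, for each gene, the DOC effect measured in the presence of PMA minus the DOC effect measured without it. All 16 of 16 arrays of the series entered, 4 in each of 4 groups, and 12495 of the 18134 genes on the array had a signal high enough to be tested. Every group consisted of HEK293 cells, a human embryonic kidney line, transfected for 24 h with 500 ng per well of a plasmid that expresses the mineralocorticoid receptor (MR, encoded by NR3C2). The vehicle group received neither agent, the DOC group 100 nM DOC, the PMA group 10 nM PMA, and the DOC plus PMA group both at these doses, each for 4 h. Vehicle is what the protocol names; the treatment field of those samples says none. All values come from 1 cell line with a transiently introduced receptor, 1 dose of each agent and 1 time, and cells lacking the MR plasmid were not analysed here. The labels call the 4 arrays of a group biological replicates.

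MR is a nuclear receptor that moves to the nucleus and binds DNA when occupied by a mineralocorticoid such as DOC, and in kidney cells it is known for raising genes of sodium retention. PMA mimics diacylglycerol and activates protein kinase C, which through the ERK pathway induces FOS and JUN proteins, the subunits of the transcription factor AP-1, and with them many inflammatory genes. The series, by its title, asks about activation of AP-1 signalling by MR. In what follows an interaction is given on the log2 scale: 0 means that the fold effects of the 2 agents multiplied, a positive value (synergy) that DOC plus PMA gave a higher signal than that product, and a negative value (antagonism) a lower one.

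Array medians of the deposited log2 signals lay between 4.91 and 4.96, and arrays of a group correlated at 0.991 to 0.997. Of the 16 arrays, 3 departed from their groups in a shared way (DOC replicate 1, PMA replicate 2 and replicate 2 of DOC plus PMA), their deviations correlating at 0.425 to 0.554, and results were also computed without these 3. NR3C2 itself averaged 7.43 with vehicle, 7.38 with DOC, 7.21 with PMA and 7.02 with both, above the array medians, with an interaction of −0.14 ± 0.15 (SE). Its array signal does not separate the plasmid from the cells' own gene. Of 9 markers used for HEK293 cells, 7 lay at or above the overall median. Of 8 leukocyte and 8 fibroblast markers on the array none did, and 1 of 8 endothelial markers did. Of the 9 markers of these other cell types that were tested, 0 passed for the interaction in limma and 2 had an unadjusted p under 0.05, namely TIE1 at −0.47 (adjusted p = 0.647) and PECAM1 at −0.41 (adjusted p = 0.807). Over all 12495 genes 0.088% passed for the interaction, and 370 had an unadjusted p under 0.05. The part of these markers in other results was not tested.

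The interaction passed the threshold, an adjusted p under 0.05 over all genes, in 11 of 12495 genes (0.088%). It was positive in 9 (0.072%), the retinoic acid hydroxylase CYP26A1, the endothelial stress protein APOLD1, the ADP-ribosyltransferase TIPARP, the heparan sulfate sulfotransferase HS3ST3B1, the thioredoxin-binding protein TXNIP, the actin-binding repeat protein XIRP1, the G protein regulator RGS2, the small GTPase RHOB and the pyruvate dehydrogenase kinase PDK4. It was negative in 2 (0.016%), the heat shock protein HSPA6 and the pleckstrin homology-like protein PHLDA1. Estimates ran from 2.98 for CYP26A1 to −2.23 for HSPA6, against a median of −0.0013 over all genes and a median standard error of 0.124. In all, 370 genes had an unadjusted p under 0.05, against 625 for 5% of the genes tested. The DOC effect with PMA was called in 10 of the 11 genes and the DOC effect without PMA in 4 (TIPARP, PHLDA1, RGS2 and PDK4). These simple effects are the parts of the interaction and not separate evidence for it. The PMA effect was called in 47% of all genes without DOC and 42.6% with DOC, the background for the PMA effects given with each gene.

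**Figure D1:**
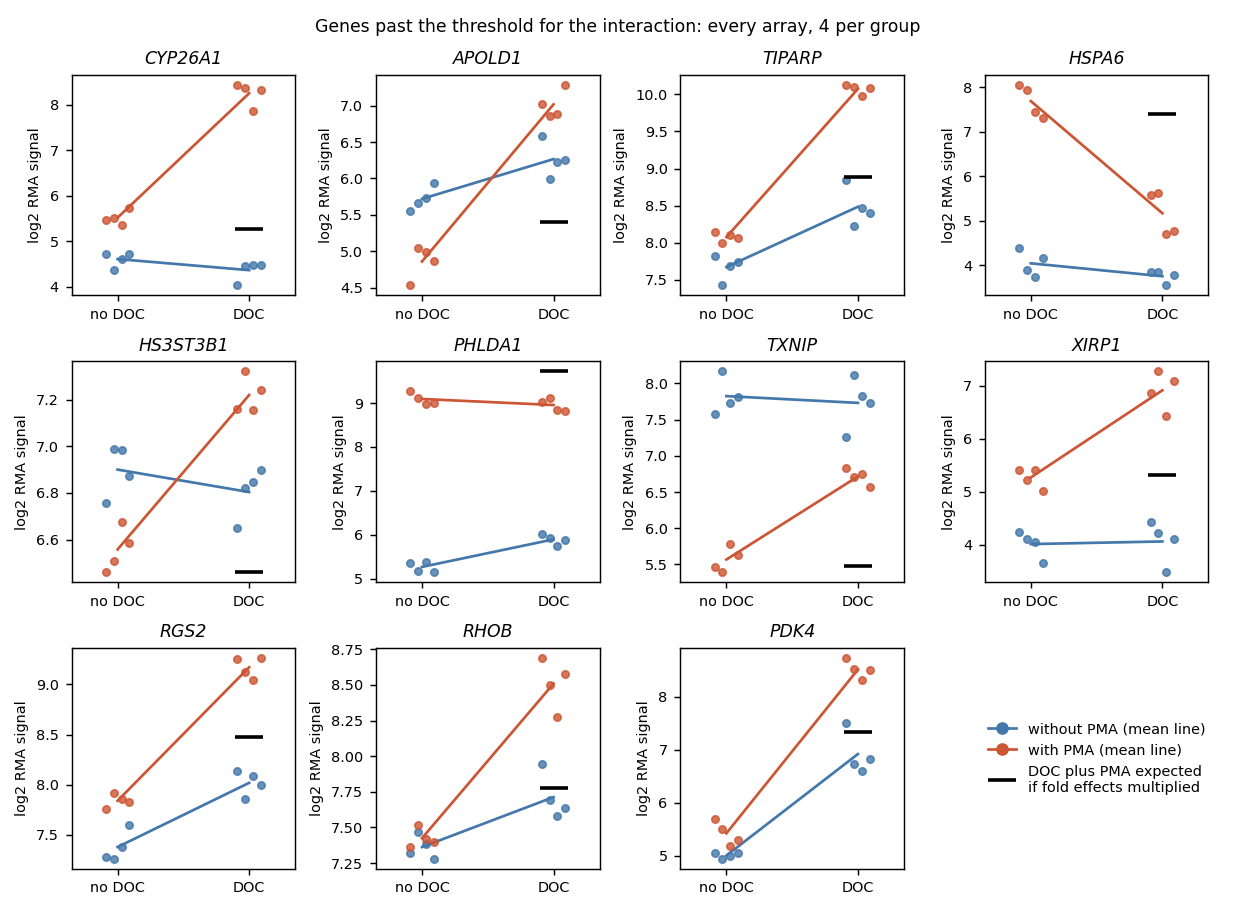
Log2 RMA signal on every array for the 11 genes past the threshold, without DOC at the left and with DOC at the right of each panel. Points are arrays (4 per group), lines join group means, blue without PMA and red with PMA, and the black bar is the DOC plus PMA level if fold effects multiplied, which for CYP26A1 was 5.27 against a measured mean of 8.25 and for HSPA6 7.40 against 5.17. Each panel has its own vertical axis.

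CYP26A1, the cytochrome P450 that clears retinoic acid, had the highest interaction of the genes tested. Its log2 signal was 4.73, 4.36, 4.61 and 4.73 on the vehicle arrays, 4.03, 4.46, 4.48 and 4.47 with DOC, 5.48, 5.51, 5.35 and 5.73 with PMA, and 8.45, 8.38, 7.87 and 8.32 with both. The DOC plus PMA arrays stood more than 2 log2 units above every other array, while DOC and vehicle arrays overlapped. The DOC effect was −0.24 ± 0.13 (SE) without PMA, where it did not pass, and 2.74 ± 0.13, or 6.67-fold, with PMA. The interaction was 2.98 ± 0.18 (95% confidence interval 2.60 to 3.37, adjusted p = 5.65e-08, limma, n = 4 per group), which means that the ratio of DOC to no DOC was 7.90 times larger with PMA. PMA raised the gene 1.88-fold without DOC and 14.9-fold with it. Without PMA the signal lay below the array medians, where changes can be understated.

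RefSeq gives 2 start sites for CYP26A1 on GRCh38.p14. The 250 bases before the downstream one (chr10:93073643-93073892, plus strand) are shown because they hold a direct repeat typical of retinoic acid receptors, in capitals, beginning 90 bases before the start:
CYP26A1: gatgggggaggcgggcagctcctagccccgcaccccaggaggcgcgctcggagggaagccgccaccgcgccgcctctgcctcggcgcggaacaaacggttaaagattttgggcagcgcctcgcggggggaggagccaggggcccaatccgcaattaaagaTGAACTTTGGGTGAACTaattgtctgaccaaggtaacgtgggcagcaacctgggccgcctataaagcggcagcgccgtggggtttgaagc
The motif, TGAACT repeated after 5 bases of any kind, on either strand, was chosen after these letters had been read. It occurs in 3 of 35093 windows of this length (0.00855%). Neither window of CYP26A1 held TGANTCA (AP-1) or the steroid receptor element (GNACA, 3 bases of any kind, TGTNC). A match describes letters in a window and not a bound site, and the lack of a match says only that the letters are not in that window.

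APOLD1, an apolipoprotein L domain protein of the immediate early class, went down with PMA alone and up with DOC plus PMA. Vehicle arrays read 5.55, 5.66, 5.74 and 5.93, DOC arrays 6.59, 6.0, 6.22 and 6.26, PMA arrays 4.54, 5.04, 4.99 and 4.87, and DOC plus PMA arrays 7.03, 6.86, 6.89 and 7.29. The 4 groups did not overlap. PMA lowered the signal to 0.551 of its level without DOC (−0.86 on the log2 scale) and raised it 1.69-fold with DOC, so that its main effect, the mean of both, was −0.05 and did not pass. DOC raised it by 2.16 ± 0.13 with PMA and was at 0.55 ± 0.13 without, where the effect did not pass (adjusted p = 0.265). The interaction was 1.61 ± 0.19 (95% confidence interval 1.22 to 2.00, adjusted p = 0.000531). A second, dim probe set of APOLD1, left out by the filter with a mean of 2.71, had an interaction of 0.13.

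TIPARP, an ADP-ribosyltransferase induced by the aryl hydrocarbon receptor, rose with each agent and further with both. Its signal was 7.82, 7.43, 7.69 and 7.74 with vehicle, 8.84, 8.22, 8.47 and 8.40 with DOC, 8.14, 8.0, 8.10 and 8.06 with PMA, and 10.13, 10.09, 9.98 and 10.09 with both. All DOC plus PMA arrays exceeded every other array by more than 1 unit. DOC raised it 1.76-fold without PMA and 3.99-fold with PMA, an interaction of 1.18 ± 0.15 (adjusted p = 0.00137). The second kept probe set of TIPARP gave 1.54.

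PDK4, the kinase that restrains pyruvate dehydrogenase, and RGS2, which speeds the inactivation of G alpha q, are known corticosteroid-responsive genes. PDK4 read 5.04, 4.94, 4.98 and 5.04 with vehicle, 7.50, 6.73, 6.60 and 6.82 with DOC, 5.69, 5.51, 5.18 and 5.30 with PMA, and 8.72, 8.52, 8.30 and 8.50 with both. No DOC array overlapped an array without DOC, and DOC replicate 1 lay above the other DOC arrays. The DOC effect on PDK4 was 3.77-fold without PMA and 8.52-fold with PMA, an interaction of 1.18 ± 0.21 (95% confidence interval 0.73 to 1.63, adjusted p = 0.0381). RGS2 read 7.28, 7.26, 7.38 and 7.60 with vehicle, 8.13, 7.86, 8.09 and 7.99 with DOC, 7.76, 7.92, 7.86 and 7.83 with PMA, and 9.26, 9.12, 9.04 and 9.26 with both. The DOC and PMA arrays of RGS2 overlapped, and DOC plus PMA was above all others. Its DOC effect was 1.56-fold without PMA and 2.51-fold with PMA, an interaction of 0.69 ± 0.12 (adjusted p = 0.0194). PDK4 had the smallest interaction of the 11 genes relative to its error, and a dim probe set of it left out by the filter (mean 2.54) gave 1.00.

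XIRP1 and RHOB belong to actin biology, XIRP1 as a striated muscle actin-binding protein and RHOB as a GTPase of actin and endosome dynamics. XIRP1 gave 4.24, 4.12, 4.05 and 3.66 with vehicle, 4.43, 4.22, 3.49 and 4.12 with DOC, 5.42, 5.23, 5.41 and 5.03 with PMA, and 6.87, 7.27, 6.43 and 7.09 with both. Vehicle and DOC arrays overlapped, below the array medians, and PMA and DOC plus PMA each stood apart. DOC changed XIRP1 by 0.05 ± 0.19 without PMA, which did not pass, and by 1.64 ± 0.19 with PMA, an interaction of 1.59 ± 0.27 (adjusted p = 0.0194). RHOB gave 7.32, 7.47, 7.38 and 7.28 with vehicle, 7.95, 7.69, 7.58 and 7.64 with DOC, 7.36, 7.51, 7.42 and 7.40 with PMA, and 8.69, 8.50, 8.28 and 8.58 with both. PMA arrays overlapped vehicle arrays. The DOC effect on RHOB was 0.35 ± 0.09 without PMA, where it did not pass (adjusted p = 0.368), and 1.08 ± 0.09 with PMA, an interaction of 0.73 ± 0.13 (adjusted p = 0.0234). The 5 kept probe sets of RHOB disagreed, with interactions from −0.16 to 0.73 and 3 of them positive, and their average gave 0.17 (adjusted p = 0.999).

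The window before the start of XIRP1 (chr3:39192596-39192845 on GRCh38.p14, minus strand, printed in the direction of transcription) is shown for its AP-1 motif, in capitals, 238 bases before the start:
XIRP1: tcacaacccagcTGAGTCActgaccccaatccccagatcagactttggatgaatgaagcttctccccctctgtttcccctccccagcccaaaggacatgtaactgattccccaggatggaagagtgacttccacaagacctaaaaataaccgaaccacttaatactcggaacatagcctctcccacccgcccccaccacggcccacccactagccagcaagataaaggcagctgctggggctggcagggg
TGANTCA, searched on both strands, was found in 6.57% of all 35093 windows and in 4.49% of the windows of tested genes. Among the 11 genes with a called interaction it was found in 2, XIRP1 and HSPA6.

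HS3ST3B1, which places the rare 3-O-sulfate on heparan sulfate, and TXNIP, which binds thioredoxin and limits glucose uptake, were raised by DOC in the presence of PMA, while their DOC effects without PMA were slightly negative and did not pass. HS3ST3B1 read 6.76, 6.99, 6.98 and 6.87 with vehicle, 6.65, 6.82, 6.85 and 6.90 with DOC, 6.46, 6.51, 6.67 and 6.59 with PMA, and 7.16, 7.32, 7.16 and 7.24 with both. The span over all arrays was under 1 unit, and DOC plus PMA was above every other array. Its DOC effect was −0.10 ± 0.07 without PMA and 0.66 ± 0.07 with PMA, and the interaction was 0.76 ± 0.11 (adjusted p = 0.00301). A second, dim probe set of HS3ST3B1, left out by the filter with a mean of 3.21, had an interaction of 0.15. TXNIP read 7.58, 8.17, 7.73 and 7.82 with vehicle, 7.26, 8.11, 7.83 and 7.73 with DOC, 5.47, 5.40, 5.78 and 5.63 with PMA, and 6.83, 6.71, 6.75 and 6.58 with both. PMA lowered TXNIP to 0.209 of its level without DOC and to 0.494 of it with DOC, so DOC plus PMA lay between PMA and the arrays without PMA. The DOC effect on TXNIP was −0.09 ± 0.15 without PMA and 1.15 ± 0.15 with PMA, an interaction of 1.24 ± 0.21 (adjusted p = 0.0194). All 5 kept probe sets of TXNIP were positive, from 0.46 to 1.24, but their average did not pass (0.91, adjusted p = 0.296).

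RefSeq gives 2 start sites for TXNIP, and the 250 bases before one of them (chr1:145996580-145996829 on GRCh38.p14, minus strand) are shown because TXNIP was the only one of the 11 genes with the steroid receptor element described above, in capitals, 175 bases before the start:
TXNIP: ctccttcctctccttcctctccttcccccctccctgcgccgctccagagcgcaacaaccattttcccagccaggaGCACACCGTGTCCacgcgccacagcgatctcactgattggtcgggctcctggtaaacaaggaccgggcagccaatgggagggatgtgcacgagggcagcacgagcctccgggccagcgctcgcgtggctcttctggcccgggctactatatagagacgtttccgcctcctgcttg
This element was found in 0.328% of all windows. The 2 further motifs searched, TGACGTCA (the cAMP response element) and GCGNGGGCG (EGR), and the CArG box, were in 0 of the 11 genes and in 1.65%, 8.41% and 1.16% of all windows.

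HSPA6, an inducible member of the HSP70 chaperones that is nearly silent in unstressed cells, was the gene most antagonised. Its signal was 4.39, 3.89, 3.75 and 4.17 with vehicle, 3.85, 3.84, 3.56 and 3.78 with DOC, 8.06, 7.93, 7.45 and 7.31 with PMA, and 5.58, 5.63, 4.71 and 4.76 with both. PMA arrays stood at least 1 unit above every other array, and 2 of the DOC plus PMA arrays lay below the array medians. PMA raised HSPA6 12.5-fold without DOC and 2.66-fold with DOC, and DOC took the level with PMA to 0.175 of itself (−2.51 ± 0.21). Without PMA the DOC effect was −0.29 ± 0.21, at signals below the array medians where a fall can be understated. The interaction was −2.23 ± 0.30 (95% confidence interval −2.85 to −1.60, adjusted p = 0.00200). The array may not separate HSPA6 from its near-identical relative HSPA7.

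The window before the start of HSPA6 (chr1:161524290-161524539 on GRCh38.p14, plus strand) is shown because it holds 2 AP-1 motifs, beginning 244 and 139 bases before the start, and a heat shock element beginning 74 bases before it, all in capitals:
HSPA6: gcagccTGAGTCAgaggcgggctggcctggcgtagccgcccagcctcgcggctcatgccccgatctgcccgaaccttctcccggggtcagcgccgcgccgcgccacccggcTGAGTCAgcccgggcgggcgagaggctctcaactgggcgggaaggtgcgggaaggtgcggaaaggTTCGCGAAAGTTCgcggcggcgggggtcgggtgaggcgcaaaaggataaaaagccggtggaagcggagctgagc
The heat shock element was searched as TTC, GAA and TTC with 2 bases of any kind between them, chosen after the window had been read, and was found in 0.442% of all windows and in none of the other called genes.

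PHLDA1, an early gene of growth factor signalling, was antagonised in the other sense, since the DOC effect was seen without PMA. It read 5.36, 5.17, 5.38 and 5.15 with vehicle, 6.01, 5.93, 5.75 and 5.88 with DOC, 9.28, 9.12, 8.97 and 8.99 with PMA, and 9.03, 9.12, 8.84 and 8.82 with both. DOC arrays lay above all vehicle arrays, and the DOC plus PMA arrays overlapped the PMA arrays. DOC raised it by 0.63 ± 0.09 without PMA (adjusted p = 0.00250), and with PMA it was at −0.14 ± 0.09, which did not pass. The interaction was −0.77 ± 0.13 (adjusted p = 0.0194), and its 4 kept probe sets ran from −0.77 to −0.63, with an average that did not pass (−0.71, adjusted p = 0.116). The PMA main effect on PHLDA1 was 3.44, the highest of the 11 genes.

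**Figure D2:**
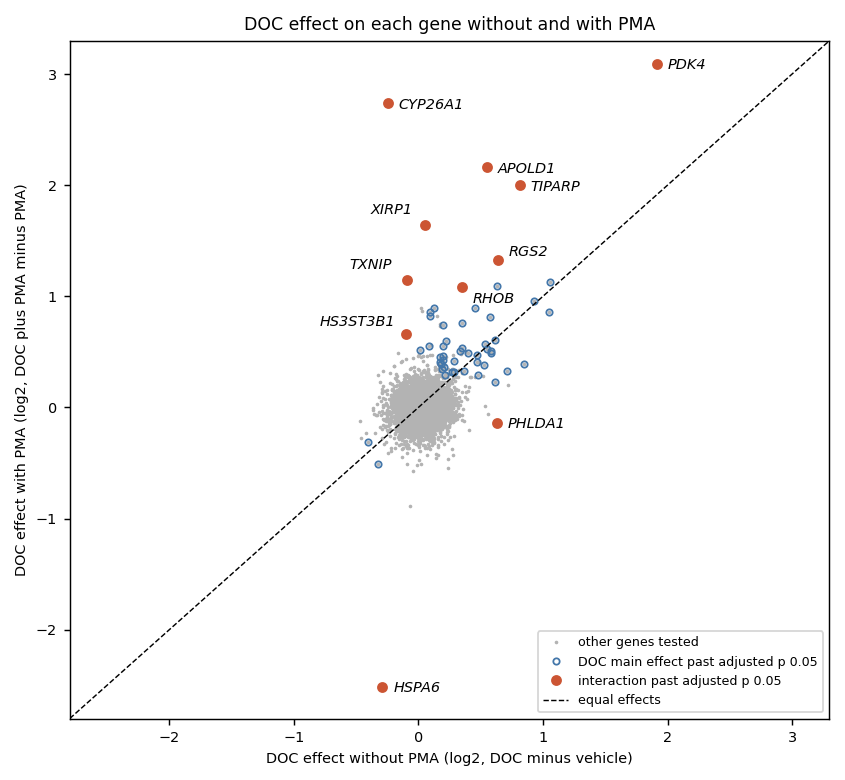
DOC effect with PMA (vertical, log2, DOC plus PMA minus PMA) against the DOC effect without PMA (horizontal, log2, DOC minus vehicle) for the 12495 genes tested. The dashed line marks equal effects, red points are the 11 genes with a called interaction, blue rings are other genes past the threshold for the DOC main effect, and grey points are the rest. CYP26A1, at −0.24 and 2.74, and HSPA6, at −0.29 and −2.51, lie farthest from the line.

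Across all genes, 15 passed for DOC without PMA (0.12%), all of them higher, and 48 for DOC with PMA (0.384%), 45 higher (0.36%) and 3 lower (0.024%). The 3 lower ones, named after their values were seen, were HSPA6, the ubiquitin ligase RNF122 (−0.57) and the Notch-regulated NRARP (−0.36). An unadjusted p under 0.05 was found in 386 genes without PMA and 544 with PMA, in either direction. The 2 sets of arrays share no sample, and over all 12495 genes the 2 DOC effects had a Pearson correlation of 0.173, which describes genes and is not a test. These counts do not show by themselves that DOC did more with PMA, since a gene can pass in one setting and narrowly miss in the other.

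Genes were also grouped by the DOC main effect, the mean of the DOC effects with and without PMA. In this balanced design the error of the main effect is independent of that of the interaction. The grouping is still not free of the interaction, because a gene with a DOC effect in 1 setting only has both. CYP26A1, with DOC effects of −0.24 without and 2.74 with PMA, entered with a main effect of 1.25. Of the 54 genes past the threshold (0.432%), 51 were raised (0.408%) and 3 lowered (0.024%, HSPA6, ARL14 and PCDH10, the last 2 named after their values were seen). The interaction was positive in 39 of the 51 raised genes (76.5%), against 49.5% of all genes, and its median was 0.21 against −0.0013. All 9 genes with a called positive interaction were among the 51. Of the 51, 14 had an interaction of at least 0.5, against 29 of all 12495, while 0 of the 51 were at −0.5 or below. A DOC effect with PMA only gives both a place in the group and a positive interaction. These counts and the median are thus a description only. The median DOC effect of the 51 was 0.35 without PMA and 0.54 with PMA. In 10 of the 51 the DOC effect was called in both settings, in 25 with PMA only, in 4 without PMA only and in 12 in neither. The median interaction of the 51 stayed between 0.19 and 0.25 under cyclic loess, with a common median, without the 3 deviating arrays and without each array in turn. At the negative end, with names given after the values were seen, were TUBA3E (interaction −0.46), STARD7-AS1 (−0.39) and the NF-kB inhibitor NFKBIA (−0.38), none of which passed. TUBA3D, a tubulin nearly identical to TUBA3E and also among the 51, was at −0.14.

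**Figure D3:**
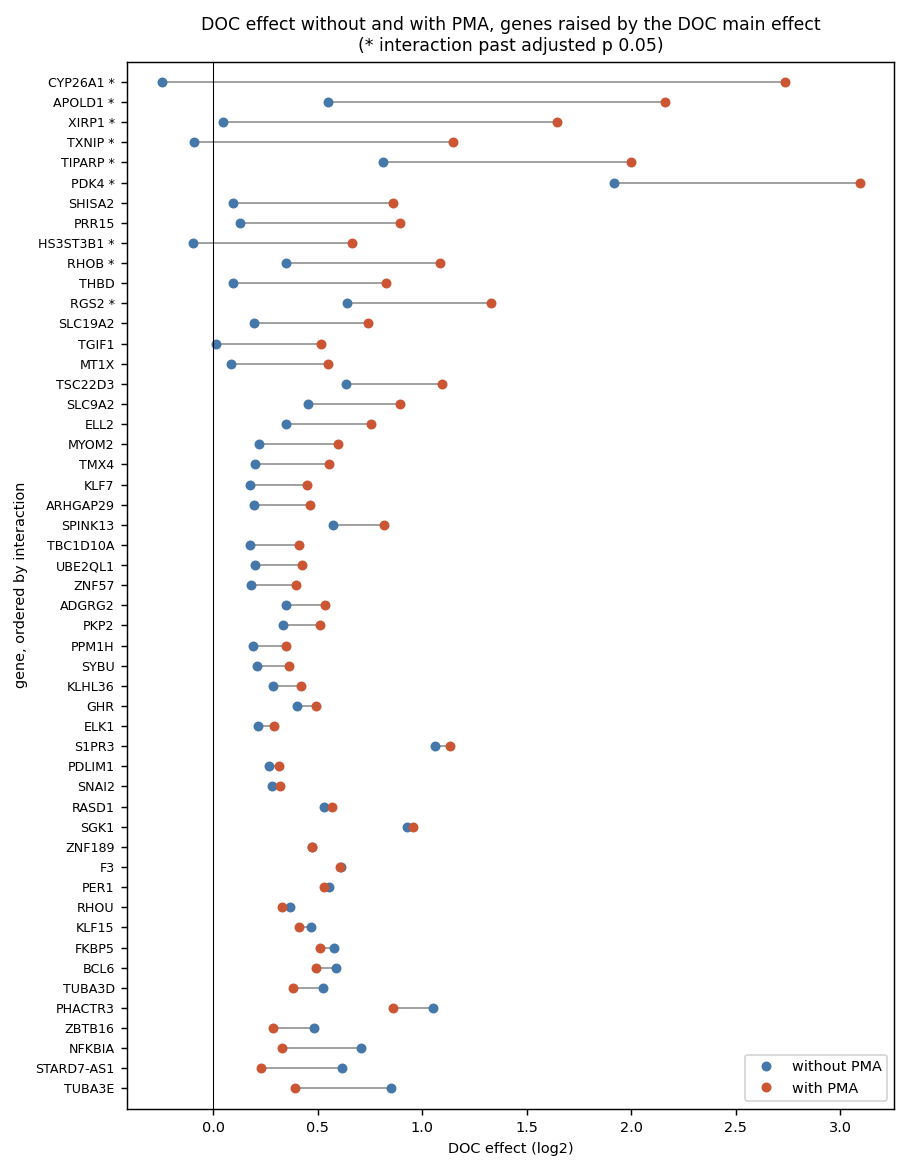
DOC effect (log2) without PMA (blue) and with PMA (red) for the 51 genes raised by the DOC main effect, ordered by the interaction, with asterisks at the 9 called genes among them. In 39 genes the red point lies to the right of the blue one. The points of SGK1 (0.93 and 0.96) and of F3 (0.61 and 0.61) nearly coincide.

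By the PMA main effect, the mean of the PMA effects without and with DOC, these genes sorted only in part. This grouping is not free of the interaction, since a high DOC plus PMA signal raises both, so the counts are a description only. RHOB, called higher, had a PMA effect of 0.06 without DOC. APOLD1 and HS3ST3B1, not called, were at −0.86 and −0.34 without DOC. Of the 51, 22 were also raised by the PMA main effect, and 19 of them had a positive interaction (86.4%, median 0.32). Of the 18 lowered by PMA 13 did (72.2%, median 0.19), and of the 11 with no called PMA main effect 7 did (63.6%, median 0.19). The PMA main effect itself was called in 7146 of 12495 genes (57.2%), 2710 higher (21.7%) and 4436 lower (35.5%), and that split depended on scaling, with 4124 higher and 3410 lower after a common median and 3278 and 3898 after cyclic loess. Among the 255 genes raised at least 2-fold by the PMA main effect, 38.4% had a positive interaction, with a median of −0.05. Among the 186 genes lowered at least 2-fold by it, 63.4% did, with a median of 0.06. Without the 3 deviating arrays the shares were 45.1% and 76.3% against 58.9% of all genes. The DOC plus PMA arrays enter this grouping too. PDK4 and CYP26A1 are among the 255, though PMA without DOC raised them 1.34-fold and 1.88-fold.

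Several DOC-raised genes had nearly the same DOC effect in both settings, and for them the confidence interval of the interaction is the useful number. SGK1, the kinase that keeps epithelial sodium channels at the membrane, read 6.51, 6.54, 6.57 and 6.42 with vehicle, 7.60, 7.20, 7.56 and 7.39 with DOC, 7.99, 7.88, 7.88 and 8.01 with PMA, and 8.87, 8.86, 8.83 and 9.03 with both. DOC raised it by 0.93 without PMA and 0.96 with PMA, so the interaction was 0.03 ± 0.11 (95% confidence interval −0.21 to 0.27). The sphingosine-1-phosphate receptor S1PR3 was raised by 1.06 and 1.13 (interaction 0.07, interval −0.17 to 0.32). PHACTR3, a phosphatase and actin regulator, was raised by 1.05 and 0.86 (interaction −0.19, interval −0.48 to 0.10). For the coagulation initiator F3, named after its values were seen, the DOC effect was 0.61 in both settings, while its PMA main effect was 4.33 and its interval ran from −0.44 to 0.43. FKBP5, the co-chaperone that dampens steroid receptors, was at 0.58 and 0.51 (interval −0.30 to 0.17).

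TSC22D3, the glucocorticoid-induced leucine zipper, was raised by DOC and lowered by PMA. Its signal was 9.03, 8.95, 8.89 and 8.93 with vehicle, 9.64, 9.58, 9.73 and 9.38 with DOC, 7.80, 7.57, 7.83 and 7.86 with PMA, and 8.94, 8.62, 9.0 and 8.89 with both. DOC plus PMA arrays thus overlapped vehicle arrays. The DOC effect was 0.63 without PMA and 1.10 with PMA, and the interaction of 0.46 (interval 0.19 to 0.73) did not pass (adjusted p = 0.807). It was 0.28 when the kept probe sets of the gene were averaged. The serine protease inhibitor SPINK13 was at 0.57 and 0.82, with an interaction of 0.24 that did not pass, at signals below the array medians. The elongation factor ELL2 was at 0.35 and 0.76 on top of a PMA main effect of 2.08, and its interaction of 0.41 did not pass (adjusted p = 0.414).

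Whether DOC and PMA act together depends on the scale on which independent action is defined. If linear signals are taken to add, the expected DOC plus PMA signal of CYP26A1 was 42.3 and the measured one 309, an excess of 267 ± 25.8 (SE). For TIPARP the excess was 651 ± 43.6, for RGS2 255 ± 25.8, for PDK4 231 ± 29.2 and for RHOB 148 ± 25.6. HSPA6 fell short by −170 ± 26.9 (37.7 measured, 208 expected). These SEs come from the spread of unweighted signals within groups. The adjusted p values come from a separate fit, limma on linear signals weighted by the inverse square of the group mean. PHLDA1 at −70.9 ± 37.7 (adjusted p = 1.00) and TXNIP at 69.7 ± 32.9 (adjusted p = 1.00) no longer passed. On this scale 15 genes passed, 9 of the 11 and in addition ELL2, RNF122, SGK1, the thiamine transporter SLC19A2, the homeobox repressor TGIF1 and thrombomodulin (THBD). For SGK1, where fold effects multiplied closely, the excess over added signals was 148 (adjusted p = 0.00436). TSC22D3 was positive on the log2 scale and negative in linear signals (−26.4), and it passed on neither.

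The genes next in order of p, none past the threshold, were mostly positive too. Of these 13 genes, 11 had a positive estimate and 2, the ubiquitin ligases RNF43 (−0.46, adjusted p = 0.345) and RNF122 (−0.53, adjusted p = 0.546), a negative one. TGIF1 came first, with 7.78, 7.65, 7.67 and 7.66 with vehicle, 7.59, 7.84, 7.71 and 7.67 with DOC, 7.95, 7.70, 7.90 and 7.93 with PMA, and 8.44, 8.39, 8.29 and 8.42 with both. Its DOC plus PMA arrays lay above all others while the remaining groups overlapped, and the interaction was 0.50 ± 0.10 (adjusted p = 0.0884). THBD, the endothelial anticoagulant receptor, was at 0.73 (adjusted p = 0.131), the mitochondrial aspartate-glutamate carrier SLC25A12 at 0.48, the metallothionein MT1X, which the array may not separate from its relatives, at 0.46, and LYPD1 at 0.66. The sphingosine-1-phosphate receptor S1PR1 was at 0.87 and the alpha-2A adrenergic receptor ADRA2A at 0.84, with wider errors of 0.22 and 0.20. SHISA2 was at 0.77, SLC19A2 at 0.54, CDC42EP4, an effector of the GTPase CDC42, at 0.42 and ELL2 at 0.41. The 3 kept probe sets of RNF43 disagreed in sign, from −0.46 to 0.33, and the second kept probe set of S1PR1 gave 0.37. Among the genes with a positive estimate, dim probe sets left out by the filter were negative for SHISA2 (−0.15) and CDC42EP4 (−0.32). They were positive for THBD (0.24), SLC25A12 (0.35 and 0.28) and S1PR1 (0.64).

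The title's question concerns a DOC effect on AP-1 genes, and the interaction covers only how that effect differed with PMA. Of 13 tested AP-1 subunits and 18 tested AP-1 targets, 0 passed for DOC without PMA, with PMA or as a main effect. Over all genes these shares were 0.12%, 0.384% and 0.432%. The interaction passed in 0.088% of all genes and had an unadjusted p under 0.05 in 370 of 12495. Of 13 tested AP-1 subunits, 0 passed for the interaction in limma and 0 had an unadjusted p under 0.05, with a median of −0.05. PMA raised 10 of them by its main effect and lowered 1, against 21.7% and 35.5% of all genes. FOSB was at −0.52 (interval −1.11 to 0.08), JUNB at −0.35, JUN at −0.19 and BATF3 at 0.20. Of 18 tested inflammatory and matrix targets of AP-1, PMA raised 17, and 0 passed for the interaction while 2 had an unadjusted p under 0.05, the urokinase PLAU at −0.42 (interval −0.80 to −0.04) and the cytokine IL11 at −0.71 (interval −1.38 to −0.03). The estimate was negative in 14 of these 18, with a median of −0.15 against −0.0013 over all genes. However, 11 of the 18 lay below the array medians both with vehicle and with DOC (14.1% of all genes did), and 10 of these reached them only with PMA. A DOC effect without PMA can hardly be seen in such genes, so their interaction mostly restates the DOC effect with PMA, and the count and median are given as a description only. PTGS2, the inducible cyclooxygenase, was at −0.31, from a DOC effect of −0.14 without PMA and −0.45 with PMA, and the chemokine CXCL8 at −0.37.

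Among 32 immediate early genes APOLD1 passed higher and PHLDA1 lower, 15 estimates were positive and 17 negative, and the median was −0.02. Over all genes tested 49.5% of estimates were positive, 0.072% passed higher and 0.016% lower, and 370 of 12495 had an unadjusted p under 0.05. These values are the background for the counts of each list. NR4A2, an orphan nuclear receptor, was at −0.43, the matricellular protein CCN2 at −0.62 and the helix-loop-helix inhibitor ID3 at 0.26. In the ERK feedback list PHLDA1 was the 1 gene of 20 to pass, and 14 of 20 were negative (median −0.04). The phosphatases DUSP5 and DUSP10 were at 0.31 and 0.23 and DUSP2 at −0.49. Of 17 NF-kB genes 0 passed in limma and 2 had an unadjusted p under 0.05, the inhibitors TNFAIP3 at −0.51 and NFKBIA at −0.38. Their DOC effects were 0.72 and 0.71 without PMA and 0.21 and 0.33 with it. The list was negative in 12 of 17, with a median of −0.05. XIRP1 was the 1 of 20 SRF and MRTF targets to pass, with CCN2 at −0.62, ANKRD1 at 0.46 and a median of −0.04. The medians of the AP-1 subunit, immediate early, ERK and SRF lists were positive without the 3 deviating arrays (0.05, 0.03, 0.01 and 0.0071). The median over all genes was then 0.02, and 58.9% of all estimates were positive. In these lists 53.9%, 53.1%, 55% and 50% were positive.

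**Figure D4:**
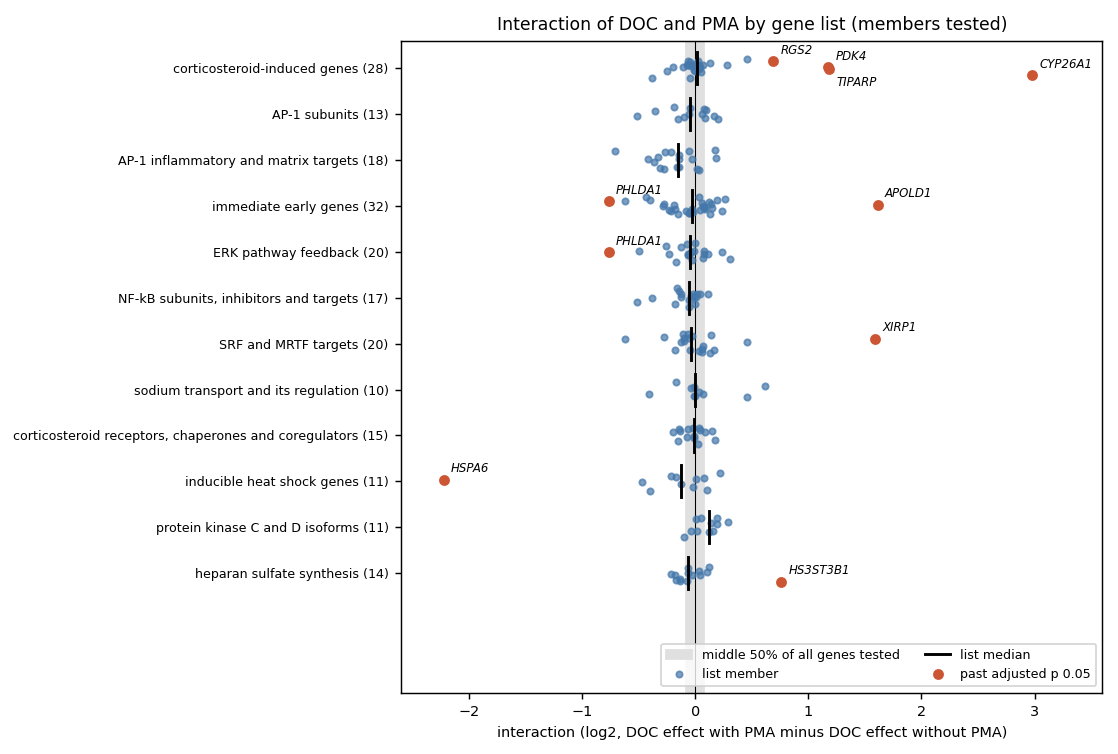
Interaction (log2) of the tested members of each of the 12 gene lists, with the number tested in brackets. Blue points are members, red points those past the threshold, black ticks the list medians, and the grey band the middle 50% of all genes tested. The medians lie between −0.15 and 0.13, and the grey band runs from −0.08 to 0.08. The medians of the AP-1 targets (−0.15), heat shock genes (−0.12) and protein kinase C and D isoforms (0.13) lie outside it. The called genes lie at the ends of their lists, with CCN2 (−0.62) close to PHLDA1 (−0.77) among the immediate early genes.

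Of 28 tested members of the corticosteroid list, 4 passed higher for the interaction (PDK4, RGS2, TIPARP and CYP26A1), against 0.072% of all genes. In all, 6 had an unadjusted p under 0.05 (370 of 12495 over all genes), the further 2 being TSC22D3 at 0.46 and NFKBIA at −0.38. In this list 14 estimates were positive and 14 negative, and the median was 0.01. The DOC main effect was called in 12 of the 28, all higher, against 0.408% of all genes called higher. TIPARP, CYP26A1 and S1PR3 had been placed on this list, and APOLD1, PHLDA1, XIRP1 and HS3ST3B1 on theirs, with their responses in these arrays known, so their counts are not independent. Of 10 sodium transport genes 0 passed in limma and 2 had an unadjusted p under 0.05, TSC22D3 and the kinase WNK4 (0.61). The epithelial sodium channel subunit SCNN1A was at −0.17 and EDN1, endothelin-1, at −0.40. Of 15 corticosteroid receptors, chaperones and coregulators 0 passed and 0 had an unadjusted p under 0.05, with STUB1 at 0.17, NRIP1 at −0.14, STIP1 at 0.15 (−0.05 without the 3 deviating arrays) and the glucocorticoid receptor NR3C1 at −0.15.

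Around HSPA6, the other inducible heat shock genes moved less. HSPA6 was the 1 of 11 tested to pass, and 1 further gene had an unadjusted p under 0.05, HSPA1B at −0.47. Over all genes 0.088% passed, and 370 of 12495 had an unadjusted p under 0.05. The co-chaperone DNAJB1 was at −0.21, HSPA1L at −0.40, and HSPB8, which PMA raised by 2.44, at 0.22. The list median was −0.12, with 7 of 11 negative. PMA raised 7 of the 11 by its main effect, against 21.7% of all genes. Of 11 protein kinase C and D isoforms 0 passed in limma and 2 had an unadjusted p under 0.05, PRKCQ at 0.29 and PRKCZ at 0.19. In this list 9 of 11 estimates were positive, and the median was 0.13 (0.07 without the 3 deviating arrays, against 0.02 over all genes). PMA lowered 8 and raised 2 by its main effect, against 35.5% and 21.7% of all genes. Of 14 heparan sulfate genes HS3ST3B1 alone passed, and the others ran from −0.22 to 0.12.

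Of the 11 calls, 5 held under each of the 27 other settings tried, among them every array left out in turn: CYP26A1 (highest adjusted p 6.56e-06), APOLD1 (0.00240), TIPARP (0.00620), HSPA6 (0.0130) and HS3ST3B1 (0.0253). No estimate of the 11 changed sign. The other 6 calls were lost in some settings. With averaged probe sets RHOB, TXNIP and PHLDA1 missed the threshold (adjusted p = 0.999, 0.296 and 0.116), and with linear signals PHLDA1 and TXNIP did (both 1.00). With every probe set tested PDK4, PHLDA1, XIRP1, RGS2 and RHOB did. The reported probe set of TXNIP missed it there too (adjusted p = 0.056), while TXNIP still counted through another of its probe sets. When arrays were left out in turn, PHLDA1 missed it without vehicle replicate 2 or 4, DOC replicate 2 or 4, or DOC plus PMA replicate 4 (−0.77 to −0.72, adjusted p = 0.0536 to 0.0726). TXNIP missed it without vehicle replicate 2 or 4, PMA replicate 1 or 4, DOC replicate 4, or DOC plus PMA replicate 1 or 2 (1.13 to 1.26, adjusted p = 0.0511 to 0.0690). XIRP1 missed it without vehicle replicate 1, 2 or 3, PMA replicate 4, DOC replicate 4, or DOC plus PMA replicate 1, 2 or 4 (1.47 to 1.61, adjusted p = 0.0518 to 0.0726). For RGS2 this was so without vehicle replicate 3, PMA replicate 1 or 4, DOC replicate 2 or 4, or DOC plus PMA replicate 1 or 4 (0.64 to 0.69, adjusted p = 0.0548 to 0.0735). RHOB kept its call without 4 of the 16 arrays, namely vehicle replicate 4, DOC replicate 1, PMA replicate 2 and replicate 3 of DOC plus PMA, and lost it without any of the other 12 (0.67 to 0.75, adjusted p = 0.0538 to 0.0845). PDK4 kept it without 3, namely DOC replicate 1, PMA replicate 1 and replicate 3 of DOC plus PMA, and lost it without any of the other 13 (1.07 to 1.21, adjusted p = 0.0627 to 0.131). PHLDA1, TXNIP and XIRP1 also missed it without the 3 deviating arrays (adjusted p = 0.0550, 0.0720 and 0.0643).

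**Figure D5:**
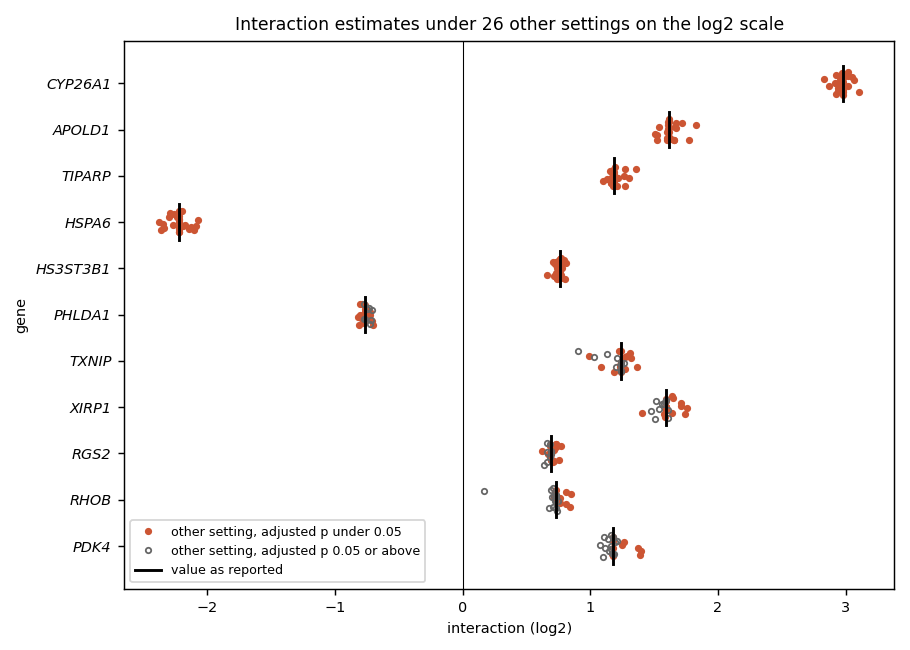
Interaction (log2) of the 11 called genes as reported (black ticks) and under the other settings on the log2 scale (points, each 1 setting), red where the adjusted p was under 0.05 and open where it was not. The points of CYP26A1, APOLD1, TIPARP, HSPA6 and HS3ST3B1 are all red, and the estimates of every gene stay on one side of 0. The open point of RHOB at 0.17 is the average of its probe sets.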

How the data were processed

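Total RNA (100 ng per array) was prepared with a 3' IVT kit for Affymetrix arrays, per the labels' protocols. The values deposited by the authors are log2 signals from RMA. The submitters' processing notes name Expression Console as the software, without a version. RMA forces all arrays to a common distribution, so a change of all transcripts in 1 direction cannot be seen. The table held 49293 probe sets, 44988 of them annotated with 1 gene, and 0 columns of other samples. A current gene was found for 44961 of them. Probe sets at or above the 40th percentile in 4 or more arrays were kept (30613 in all, 28226 with 1 gene), and each gene was represented by its kept probe set of highest mean, which gave 12495 genes, 7495 of them with several kept probe sets. There are no read depths, and 4 arrays per group limit the precision.

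Group means of the 16 arrays were fitted with limma 3.58.1 (R 4.3.3, lmFit and eBayes). Tests were two-sided, with Benjamini-Hochberg adjustment over all 12495 genes and a threshold of 0.05, and no fold minimum. Confidence intervals are 95%. The script was tested on simulated data. Named genes are all that passed for the interaction, the next 13 by p, the 12 with the smallest p for the DOC main effect, and in each list up to 4 members of smallest p and any that passed. Other genes are said to be named after their values were seen. The genes described, the lists and the alternatives were chosen with earlier results of these data known. Promoter windows (250 bases before each start, 35093 in all) are from RefSeq for GRCh38.p14, and all 11 called genes matched. The build behind the array annotation is not given in the sources used here.

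What arrays of 1 replicate number have in common is not stated. After subtraction of group means, PMA and DOC plus PMA arrays of equal number correlated at 0.157 to 0.549 in 4 of 4 pairs, all above 0.1. For any other 2 groups at most 3 of 4 pairs exceeded 0.1. The numbers were therefore taken to pair these 2 groups in an alternative fit, and the main fit used no pairing. The highest value came from replicate 2 of both groups, which are deviating arrays. PMA replicate 2 also correlated at 0.554 with DOC replicate 1, so a pairing is not established. Alternatives were filters, probe set choice, scaling, array weights, moderation, the replicate block, linear signals, leaving out the 3 deviating arrays and leaving out each array.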

Additional observations from a re-analysis of the deposited data

Results flagged for a closer look

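The DOC effect differed between cells with and without PMA, by the test of the interaction, in 11 genes. The differences were 2.98 for CYP26A1, 1.61 for APOLD1, 1.18 for TIPARP, −2.23 for HSPA6, 0.76 for HS3ST3B1, −0.77 for PHLDA1, 1.24 for TXNIP, 1.59 for XIRP1, 0.69 for RGS2, 0.73 for RHOB and 1.18 for PDK4 (log2, adjusted p from 5.65e-08 to 0.0381, limma). In CYP26A1, TXNIP and HS3ST3B1 the DOC effect without PMA was below 0 and did not pass, so a reversal was not shown.

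Groups of 4 arrays were examined for the called genes, the next 13 by p and the 12 named for the DOC main effect. In 5 of these 116 groups, 1 array stood apart from the other 3 by more than Dixon's 95% critical value, and chance flags about 1 in 20 groups. DOC replicate 1 was low for CYP26A1 (4.03) and high for SHISA2 (7.48) and SLC19A2 (7.34). Vehicle replicate 1 was high for TGIF1 (7.78) and DOC replicate 3 low for RNF122 (5.22). DOC replicate 1 is also 1 of the 3 arrays that deviated together. Without it the interaction of SHISA2 passed (0.91, adjusted p = 0.00699), as did those of THBD (0.81) and LYPD1 (0.74), both with adjusted p = 0.0342, and CYP26A1 kept its call.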

How the results depend on the processing

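The count of 11 genes with a called interaction became 6 with every probe set tested, all of them among the 11, and 25 with array weights, which included all 11. Leaving out 1 array gave 5 to 14, with the lowest count without DOC replicate 4 and the highest without DOC replicate 1. It was 6 without vehicle replicate 2, PMA replicate 4 or DOC plus PMA replicate 1 or 4, and 7 without vehicle replicate 3, DOC replicate 2 or DOC plus PMA replicate 2. With averaged probe sets 9 passed (PHLDA1, RHOB and TXNIP lost), after cyclic loess 10 (PDK4 lost), with linear signals 15, and without the 3 deviating arrays 9. For DOC with PMA the count of 48 became 89 with array weights and 31 to 53 with 1 array left out, 31 being without DOC plus PMA replicate 4. For the DOC main effect the count of 54 became 94 with array weights. Over the 11 genes and 27 settings, 230 of 297 values kept their call and 67 did not, and none reversed. The cause of these differences was not tested.

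With the replicate block over all 16 arrays 15 genes passed for the interaction, 13 higher and 2 lower, including all 11, with LYPD1, MT2A, PRR15 and THBD added. The block gave 16 genes for DOC without PMA, 56 for DOC with PMA (61 within the 8 PMA-treated arrays alone, where the numbers pair the arrays and 41 of the 48 still passed), 66 for the DOC main effect and 7334 for the PMA main effect. It moved no count by over 1.5 times. Signals below the array medians with vehicle and with DOC limit what can be read without PMA from 23 of the 78 genes chosen by the naming rule. Among them are CYP26A1, HSPA6 and XIRP1 of the 11 called, and ADRA2A, DUSP2, EDN1, FOSB, IL11, PHACTR3, PLAU, PTGS2, SCNN1A, SPINK13, THBD and WNK4.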
